A study of Cucumis sativus with 12 samples.

Results

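The early response of cucumber leaves to cold was described by comparing RNA-seq libraries of leaves after 3 h of cold treatment with libraries of leaves at 0 h. The comparison used 6 of the 12 libraries of the series, 3 at 3 h and 3 at 0 h, and covered every gene of the table. Seedlings of the inbred line JinYan No. 4, a single genotype with 3 true leaves, had been moved to a cold regime of 15 °C in a light period of 12 h and 6 °C in a dark period of 12 h, while the 0 h leaves came from the warm regime just before the move. The 0 h leaves were the only reference, so that the effects of cold, of the changed light period, of the time of day and of 3 h of further growth cannot be told apart. Of the 24317 genes, 17497 reached 0.5 FPKM (fragments scaled to transcript length and to the library's mapped fragments) in 3 or more of the 12 libraries and were tested. Members of the glutathione S-transferase family are not described here.

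A plant cell that is cooled stiffens its membranes and lets calcium into the cytosol. Calcium-binding proteins and protein kinases then act on transcription factors, of which the DREB1 (CBF) proteins are the best known regulators of cold-induced genes. Cucumber comes from warm regions and is injured by temperatures that many temperate plants tolerate.

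The 3 libraries of each time were close to each other. FPKM summed to between 567238 and 572799 in the 3 h libraries and to between 561513 and 566575 in the 0 h libraries. Across genes, log2 values of replicate libraries correlated at 0.988 to 0.989 at 3 h and at 0.988 to 0.990 at 0 h, while libraries of different times correlated at 0.906 to 0.925. The median coefficient of variation of a gene was 7.13% at 3 h and 7.31% at 0 h. The sources used here do not give read numbers. The 19 tested mesophyll marker genes summed to between 29027 and 32850 FPKM at 3 h and to between 28088 and 32579 FPKM at 0 h. The small subunit of Rubisco (CsaV3_5G034360) was the most abundant gene in all 6 libraries. These sums hide opposite changes and so cannot serve as a check of the tissue. The Rubisco gene averaged 14287 FPKM at 3 h and 21515 FPKM at 0 h. Several chlorophyll a-b binding genes of the list were higher at 3 h, such as CsaV3_6G013800 (2356 FPKM at 3 h and 638 FPKM at 0 h). The libraries came from whole leaf tissue, in which fewer cells of a type and less RNA per cell cannot be told apart.

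The leaves at 3 h held 1731 genes with higher and 943 with lower values than those at 0 h, at an adjusted p under 0.05 (limma with Benjamini-Hochberg adjustment over the 17497 genes) together with a log2 fold change (log2FC, 3 h minus 0 h) beyond 1 in size. These were 9.89% and 5.39% of the tested genes, together 15.3%, and a share of a gene group is read against these values below. Values with ± are means with the SD over 3 libraries. The fold changes are on the scale of log2(FPKM + 0.5), which understates the change of low genes. The higher genes moved further than the lower ones. A log2FC above 3 was found for 193 genes and one below -3 for 7, while the median over all tested genes was 0.03. The higher genes took 14.1% of the FPKM of the 3 h libraries and 3.66% of that of the 0 h libraries. The lower genes took 2.84% at 3 h and 7.6% at 0 h. The libraries of the groups did not overlap for 2659 of the 2674 called genes, a count that the threshold largely fixes, while over all tested genes the 3 h libraries lay above in 36% and below in 31.9%. The excess of higher over lower genes depended in its size on scaling: 64.7% of the calls were higher, with 61.1% after median-ratio rescaling (1593 higher and 1014 lower) and 54.1% after quantile normalization (1470 higher and 1246 lower). Among the called genes, 594 higher and 376 lower ones had no informative description.

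**Figure D1:**
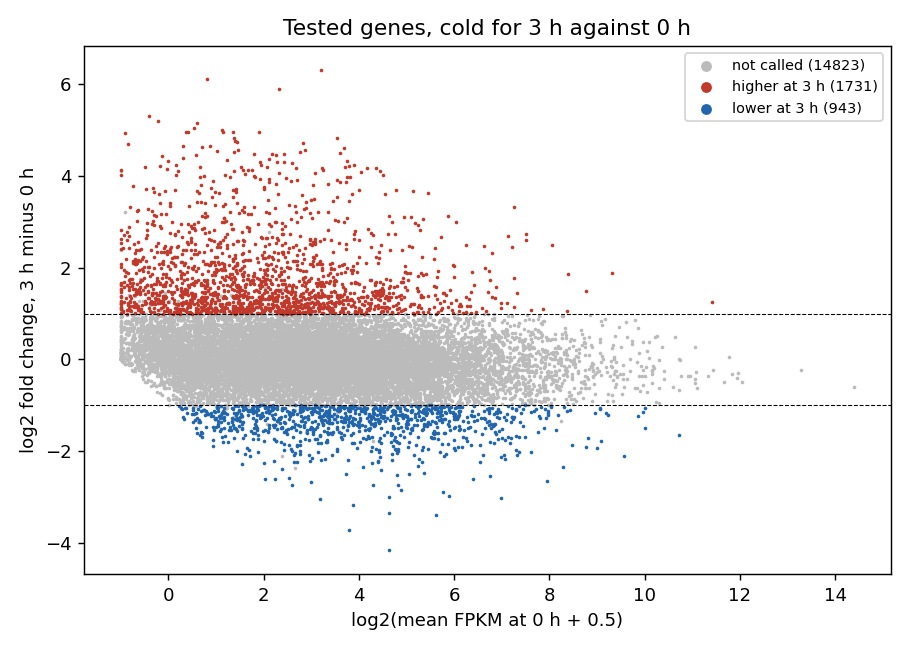
Each point is 1 of the 17497 tested genes, with log2 of its mean FPKM at 0 h plus 0.5 on the horizontal axis and its log2FC, 3 h minus 0 h, on the vertical axis; dashed lines mark 1 and -1. Red points (1731 genes) reach up to 6.30 and most blue points (943 genes) lie between -1 and -3.

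The highest fold change of a gene with a naming description belonged to SPX1 (CsaV3_1G030190). SPX proteins sense the phosphate state of the cell. This gene had 323, 254 and 309 FPKM at 3 h against 4.49, 4.28 and 4.75 FPKM at 0 h, a log2FC of 5.88 (SE 0.58, limma adjusted p = 1.06e-05). The other genes of the 12 highest fold changes encoded a class I small heat shock protein (CsaV3_3G027480, 5.29), the calcium-binding protein CML19 (CsaV3_1G000650, 5.19), 3 phenylalanine ammonia-lyases, a basic 7S globulin-like protein (CsaV3_3G013680, 4.99), a HARBI1-like nuclease (CsaV3_1G040660, 4.96), the ubiquitin ligase PUB23-like (CsaV3_3G038010, 4.94), YLS9-like (CsaV3_3G037870, 4.94), the transcription factor ERF053 (CsaV3_7G004340, 4.93) and an ACC oxidase (CsaV3_6G037780, 4.81). They thus came from signalling, protein folding, protein turnover, ethylene synthesis and phenylpropanoid synthesis. CML19 had 29, 43.4 and 22.8 FPKM at 3 h and 0.557, 0.261 and 0.266 FPKM at 0 h. The 3 h libraries of this gene were more spread than those of most genes, yet the lowest of them was far above every 0 h library.

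The lowest fold change was that of a high mobility group B protein, a DNA-bending chromatin protein (CsaV3_4G037000), which had 0.848, 0.698 and 1.17 FPKM at 3 h and 25.3, 23.3 and 24 FPKM at 0 h (log2FC -4.15 with SE 0.16, limma adjusted p = 2.49e-09). It was followed by a chloroplastic dnaJ 11-like chaperone (CsaV3_2G015850, -3.39) and by CONSTANS-LIKE 6 (CsaV3_5G026860), which had 2.62 ± 0.575 FPKM at 3 h and 24.1 ± 0.481 FPKM at 0 h (SD, n = 3 each). The others were TBL19, a cell wall acetylation protein of the trichome birefringence family (CsaV3_5G038980, -2.89), a CCCH zinc finger protein (CsaV3_4G035420, -2.73), cyclin-A3-1 (CsaV3_2G026360, -2.67), the tonoplast aquaporin TIP4-1 (CsaV3_2G030920, -2.61), the F-box protein PP2-A13 (CsaV3_3G009250, -2.54), CBSX5 (CsaV3_1G012170, -2.50), the chloride channel CLC-b (CsaV3_2G034160, -2.48), the homeobox protein HAT22 (CsaV3_3G026410, -2.40) and MLO4 (CsaV3_3G019230, -2.35).

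**Figure D2:**
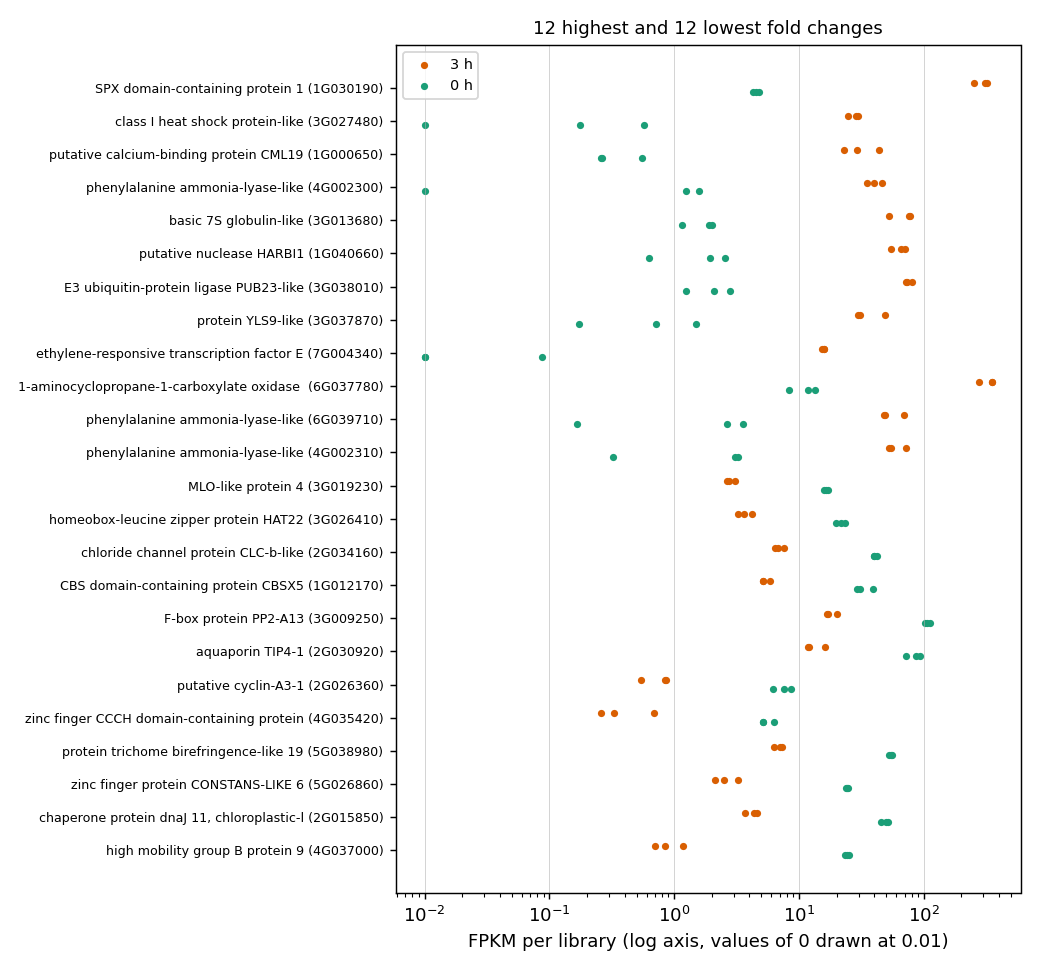
FPKM of each library (log axis, values of 0 drawn at 0.01) for the 12 genes with the highest and the 12 with the lowest log2FC, 3 h in orange and 0 h in green. SPX1 at the top lies between 254 and 323 FPKM at 3 h and under 5 FPKM at 0 h; genes whose libraries overlap were not eligible for the plot.

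In absolute terms the largest gain was that of non-specific lipid-transfer protein 1 (CsaV3_3G033150), a secreted protein of the leaf surface, with 6860, 6603 and 5926 FPKM at 3 h and 2598, 2752 and 2794 FPKM at 0 h. A pair of light-harvesting genes (CsaV3_6G013800 and CsaV3_6G051520), a cyanogenic beta-glucosidase-like gene (CsaV3_1G042490) and a polyubiquitin gene (CsaV3_1G011030) came next. The beta-glucosidase-like gene, of an enzyme family that releases defence compounds from their glucosides, had 1529, 1484 and 1530 FPKM at 3 h and 136, 168 and 155 FPKM at 0 h (log2FC 3.31, adjusted p = 8.79e-06, limma). The largest losses were those of a galactinol--sucrose galactosyltransferase (CsaV3_4G011820), alpha carbonic anhydrase (CsaV3_3G037320, 367 ± 16.4 FPKM at 3 h and 1033 ± 38.7 FPKM at 0 h, SD, n = 3 each), CONSTANS-LIKE 2 (CsaV3_4G009980), an F-box protein (CsaV3_2G016470) and a haloacid dehalogenase-like hydrolase (CsaV3_3G040280).

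Among the regulators of the cold response, 5 of 6 tested DREB genes were higher at 3 h (83.3%) and none was lower. DREB1B-like (CsaV3_5G005890) had 3.01, 3.71 and 2.16 FPKM at 3 h and 0.282, 0.0411 and 0 FPKM at 0 h, and DREB1A (CsaV3_3G016760) had 6.24, 5.85 and 5.39 FPKM at 3 h and 0.924, 0.607 and 1.14 FPKM at 0 h. The levels of both stayed low at 3 h. Among the DREB2 genes, which are better known from heat and drought, DREB2C (CsaV3_6G002010) averaged 29.5 ± 0.854 FPKM at 3 h and 6.53 ± 0.437 FPKM at 0 h, and the DREB2A-like genes CsaV3_4G026790 and CsaV3_4G026910 had log2FC values of 2.13 and 1.82. The remaining gene, CsaV3_6G012590, had a log2FC of -0.24 (adjusted p = 0.0524, limma).

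Zinc finger proteins of the ZAT class, repressors that accumulate under many stresses, stood out by level. Of 11 tested genes 7 were higher and none lower, and the summed FPKM of the class averaged 890 at 3 h against 75.7 at 0 h. ZAT10 (CsaV3_4G034970) had 409, 463 and 457 FPKM at 3 h and 33.4, 31.3 and 39 FPKM at 0 h (log2FC 3.66 with SE 0.14, limma adjusted p = 3.24e-09), and a ZAT10-like gene (CsaV3_2G026210) reached 293 ± 24.7 FPKM at 3 h against 12.4 ± 5.46 FPKM at 0 h. Of 73 tested ethylene-responsive factors 28 were higher (38.4%) and 4 lower (5.48%), or 2 lower without 3 h replicate 2. They were led by ERF053, by ERF4 (CsaV3_4G033470, 99.1 ± 11.6 FPKM at 3 h and 4.02 ± 0.695 FPKM at 0 h), a repressor in Arabidopsis, and by ERF6 (CsaV3_3G002470, 103 ± 11.1 and 4.31 ± 1.24 FPKM at the same times). The call of the lowest member, ERF039 (CsaV3_3G007490, -1.71), was lost without any of 5 of the 6 libraries, for example without 3 h replicate 2 (adjusted p = 0.15, limma).

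In the other factor families more of the called genes were higher than lower. Of 43 WRKY genes, known from defence, 16 were higher and 3 lower, a share of higher genes above that of all tested genes. WRKY46 (CsaV3_3G008170) had 241, 288 and 302 FPKM at 3 h and 16.9, 12 and 19.1 FPKM at 0 h, so that 3 h was above 0 h in each library. Of 41 NAC genes 8 were higher and 2 lower, with NAC2 (CsaV3_2G019740) at 370 ± 41.1 FPKM at 3 h and 20 ± 2.13 FPKM at 0 h. Of 50 MYB genes 12 were higher and 3 lower, or 6 lower after quantile normalization. The bHLH genes gave 7 higher and 1 lower of 80 (2 lower without 3 h replicate 3), shares under those of all tested genes. MYC2 activates jasmonate responses in Arabidopsis. A MYC2-like gene (CsaV3_3G001710) had 34.2, 39.8 and 41.5 FPKM at 3 h and 16.7, 16.4 and 17 FPKM at 0 h, whereas the gene described as MYC2 (CsaV3_3G049150) had 43.2, 42.6 and 46.6 FPKM at 3 h and 63.3, 63.5 and 63.1 FPKM at 0 h and was not called (log2FC -0.52).

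Upstream of transcription, 23 of 80 calcium sensors and calcium-dependent kinases were higher (28.7%) and 3 lower, or 1 lower without 3 h replicate 1 and 5 after quantile normalization or with a pseudocount of 0.1. Besides CML19, the higher ones included CML30 (CsaV3_5G038130, 182 ± 25.2 FPKM at 3 h and 6.55 ± 1.51 FPKM at 0 h), PBP1 (CsaV3_3G005500, log2FC 4.34), CML44 (CsaV3_6G034010, 3.64) and CML35 (CsaV3_3G040820, 2.93). The 23 higher genes included 3 calcium-dependent kinases, with log2FC values between 1.37 and 1.52. Their share among all tested calcium-dependent kinases is not given here. In the MAP kinase cascade, 6 of 34 genes were higher and 4 lower. MPK3-like (CsaV3_1G033530), a kinase activated by cold and by pathogens in Arabidopsis, had 310, 386 and 355 FPKM at 3 h and 27, 22.7 and 30.7 FPKM at 0 h (log2FC 3.69 with SE 0.17, limma adjusted p = 1.13e-08). The kinase kinase MKK5-like (CsaV3_3G031180) had 38.5 ± 3.87 FPKM at 3 h and 6.78 ± 0.809 FPKM at 0 h. MPK19 (CsaV3_4G007970), by contrast, had 260 ± 9.62 FPKM at 3 h and 583 ± 13.7 FPKM at 0 h (log2FC -1.16). Of 307 receptor-like kinases 54 were higher (17.6%) and 10 lower. Of 243 U-box and RING ubiquitin ligases, which mark proteins for breakdown, 26 were higher and 15 lower, near the shares of all tested genes. Among the higher ones were PUB23-like, with 75.4 ± 4.14 FPKM at 3 h and 2.04 ± 0.771 FPKM at 0 h, and ATL2 (CsaV3_3G014860), with 66.8 ± 8.81 and 4.27 ± 0.738 FPKM.

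**Figure D3:**
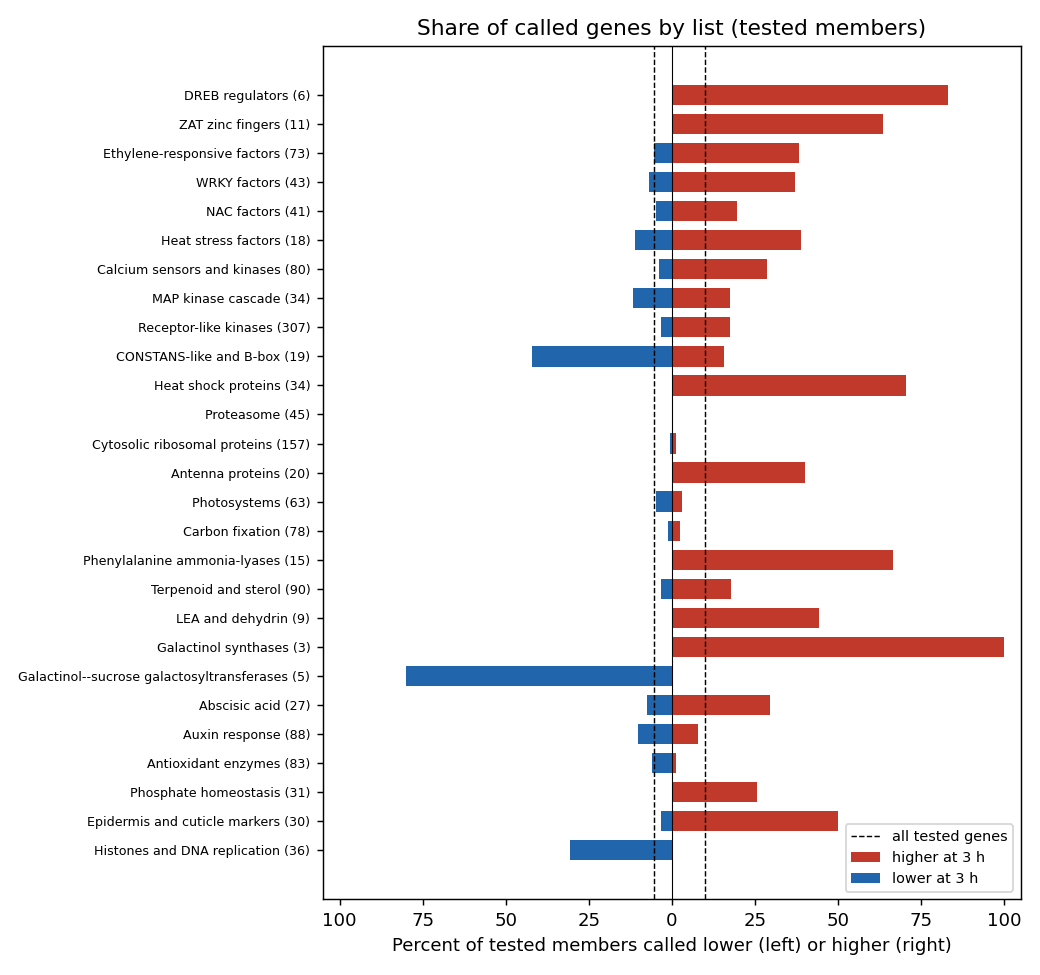
For 27 gene lists, with the number of tested members in brackets, bars to the right give the percent of tested members called higher at 3 h and bars to the left the percent called lower; dashed lines give these shares for all tested genes (9.89% and 5.39%). DREB regulators reach 83.3% higher, while proteasome genes have no bar.

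Heat shock proteins, chaperones that hold or refold damaged proteins, were higher in the cooled leaves. Of 34 tested genes 24 were higher (70.6%) and none lower, with a median log2FC of 1.73, and their FPKM summed to 2888 on average at 3 h against 570 at 0 h. Of these 34, 23 were small heat shock proteins, and 15 of the small ones were higher. A partly overlapping list of 16 genes of HSP70, HSP90 and HSP100 type, of which 10 belong to the 34, had 11 higher members. HSP70 (CsaV3_4G024840) had 487, 544 and 585 FPKM at 3 h and 44.9, 40.1 and 44.2 FPKM at 0 h (log2FC 3.63 with SE 0.11, limma adjusted p = 2.83e-10). Among the small ones CsaV3_5G008760 averaged 503 ± 34.2 FPKM at 3 h and 57.6 ± 2.94 FPKM at 0 h, and CsaV3_4G025700 258 ± 17.4 FPKM at 3 h and 13.4 ± 1.01 FPKM at 0 h. The heat stress factors, which drive chaperone genes in heat, gave 7 higher and 2 lower of 18. HSFA2 (CsaV3_2G025510) had 26.6, 25.9 and 31 FPKM at 3 h and 3.25, 3.03 and 3.29 FPKM at 0 h, whereas HSFA7a (CsaV3_2G013880, -1.33) and HSFC1 (CsaV3_2G002270, -1.12) were lower.

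No gene of 45 in the proteasome was called by limma (0 higher and 0 lower), and at an unadjusted p under 0.05 without the fold threshold 14 were higher and 11 lower. The polyubiquitin gene CsaV3_1G011030 had 1110, 1275 and 1218 FPKM at 3 h and 181, 179 and 184 FPKM at 0 h (log2FC 2.72). Of 157 cytosolic ribosomal protein genes 2 were higher and 1 lower, with a median log2FC of 0.33. The higher count was 4 without 0 h replicate 2 and 0 without 0 h replicate 3, and the lower count 0 without 0 h replicate 2 or 3 h replicate 1. Of 44 plastid ones 2 were higher, or 1 without 0 h replicate 3 or 3 h replicate 2, and 1 was lower, with a median of -0.21. Of 208 spliceosome genes 8 were higher, or 13 without 3 h replicate 1, and 1 was lower, with 0 to 2 lower when 1 library was left out and 6 after quantile normalization. The 5 leading higher ones were HSP70 genes that the pathway annotation includes. DnaJ co-chaperones went both ways, with 7 higher and 3 lower of 51.

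Among light-related genes, of 19 CONSTANS-like and B-box zinc finger genes, which link light and day length to development, 8 were lower (42.1%) and 3 higher. CONSTANS-LIKE 2 had 179, 173 and 182 FPKM at 3 h and 751, 758 and 774 FPKM at 0 h, and a CONSTANS-LIKE 6 gene (CsaV3_6G003540) had 60.8 ± 6.45 FPKM at 3 h and 311 ± 9.17 FPKM at 0 h. In the other direction CONSTANS-LIKE 11 (CsaV3_2G035220) had 51.6, 49.6 and 52 FPKM at 3 h and 5.31, 7.52 and 5.3 FPKM at 0 h. Of 17 clock genes 2 were higher (11.8%) and 1 lower (5.88%), near the shares of all tested genes. The higher ones were an APRR7 gene (CsaV3_4G024430, 34.1 ± 1.35 FPKM at 3 h and 6.6 ± 0.132 FPKM at 0 h) and GIGANTEA-like (CsaV3_6G005020, 17 ± 0.951 and 5.8 ± 0.134 FPKM), while another APRR7 gene (CsaV3_5G000530, log2FC 0.12) and GIGANTEA (CsaV3_7G024490, 0.27) were not called. REVEILLE 1-like (CsaV3_5G020580) was lower, with 37.3, 37.6 and 34.4 FPKM at 3 h and 120, 121 and 121 FPKM at 0 h. The morning gene LHY-like (CsaV3_6G008360) had 560, 541 and 580 FPKM at 3 h and 679, 645 and 678 FPKM at 0 h, which differed less than the threshold asks (log2FC -0.25). The light regulator HY5 (CsaV3_3G046530) was higher, with a mean of 19.5 FPKM at 3 h and 3.73 FPKM at 0 h, and the blue light receptor cryptochrome-1 (CsaV3_3G047490) lower, with 94.7 and 205 FPKM; both were named after their values were seen. Such genes follow the time of day in plants, and its part cannot be told apart from that of cold here.

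Within photosynthesis the change was uneven. Of 20 antenna protein genes, whose products bind chlorophyll and harvest light, 8 were higher (40%) and none lower, with a median log2FC of 0.64. The gene CsaV3_6G051520 for an LHCII protein had 1599, 1435 and 1465 FPKM at 3 h and 255, 258 and 279 FPKM at 0 h (log2FC 2.50 with SE 0.15, limma adjusted p = 8.16e-08), and CsaV3_6G013800 averaged 2356 ± 155 FPKM at 3 h and 638 ± 25.4 FPKM at 0 h. Near-identical LHCII copies can share reads. The antenna genes for CP29 (CsaV3_4G026100) and CP24 (CsaV3_6G005340) had log2FC values of 0.14 and 0.01. Of 63 photosystem and electron transport genes 2 were higher and 3 lower, with a median of -0.24, and of 78 carbon fixation genes 2 were higher and 1 lower, with a median of -0.16; without 3 h replicate 1 the higher ones were 5, without 0 h replicate 3, 3 h replicate 2 or 3 h replicate 3 the lower ones were 2, and after quantile normalization 5 were lower. The pair that was higher in carbon fixation comprised ribose-5-phosphate isomerase 2 (CsaV3_5G034910, 65.7 ± 10.2 FPKM at 3 h and 3.82 ± 0.351 FPKM at 0 h) and a phosphoenolpyruvate carboxylase of the housekeeping type (CsaV3_4G033150, 293 ± 9.68 and 33.4 ± 1.36 FPKM). The small subunit of Rubisco had 15436, 14150 and 13275 FPKM at 3 h and 20963, 19839 and 23743 FPKM at 0 h (log2FC -0.59, not called). Of 58 porphyrin and chlorophyll genes 6 were higher (10.3%) and 4 lower (6.9%), near the shares of all tested genes. Related genes differed in direction: a STAY-GREEN-like gene (CsaV3_5G003370), of a family that takes part in chlorophyll breakdown, had 33.5 ± 1.76 FPKM at 3 h and 10.7 ± 1.5 FPKM at 0 h, whereas STAY-GREEN LIKE (CsaV3_6G031220) averaged 64 FPKM at 3 h and 174 FPKM at 0 h (log2FC -1.44). A ferrochelatase-2 gene (CsaV3_2G025670, 2.27) was higher, and another (CsaV3_6G013410, -0.24) was not called. Of 60 genes annotated to carotenoid synthesis 9 were higher and 2 lower, or 1 lower without 3 h replicate 2. The higher ones included abscisic acid hydroxylases and NCED genes, some of them named with abscisic acid below. No phytoene synthase, carotene desaturase or lycopene cyclase was called, such as CsaV3_5G020340 (0.20) and CsaV3_4G022080 (0.06). A zeaxanthin epoxidase gene (CsaV3_7G001140, -1.44) was lower. The others of that description, CsaV3_3G049870 (-0.04), CsaV3_7G001130 (0.50) and CsaV3_2G031750 (-0.91), were not called.

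Genes described as enzymes of raffinose synthesis differed in direction. Galactinol synthases make the galactosyl donor, and galactinol--sucrose galactosyltransferase activity uses it to form raffinose, a sugar that protects membranes. The genes were assigned by description only, and which of them form raffinose in these leaves was not tested. All 3 tested galactinol synthases were higher. The gene CsaV3_3G031720 had 81, 81.5 and 74.1 FPKM at 3 h and 6.2, 6.94 and 7.62 FPKM at 0 h, and CsaV3_1G015730 had 55.3 ± 5.66 FPKM at 3 h and 2.97 ± 0.365 FPKM at 0 h. Of the 5 genes described as galactosyltransferases 4 were lower, led by CsaV3_4G011820 (log2FC -1.65). It had 532, 529 and 561 FPKM at 3 h and 1704, 1640 and 1732 FPKM at 0 h. The remaining gene, galactosyltransferase 5-like (CsaV3_3G042690), had 230 ± 19 FPKM at 3 h and 189 ± 13.7 FPKM at 0 h and was not called (log2FC 0.28). The FPKM of all 5 summed to 822 on average at 3 h against 2002 at 0 h. The calls of 2 of the lower genes rested on the fold threshold: CsaV3_1G000950 (-1.03) had -0.98 without 3 h replicate 1, and CsaV3_4G033560 (-1.06) had -0.99 without 3 h replicate 2. In starch and trehalose metabolism 3 of 35 genes were higher and 4 lower. The share of higher genes was under that of all tested genes, and the share of lower genes was above it. The higher ones included the chloroplastic beta-amylase BAM1 (CsaV3_3G011520, 342 ± 12.6 FPKM at 3 h and 153 ± 3.85 FPKM at 0 h), which degrades starch. Of 21 sugar transporters 4 were higher and 2 lower.

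**Figure D4:**
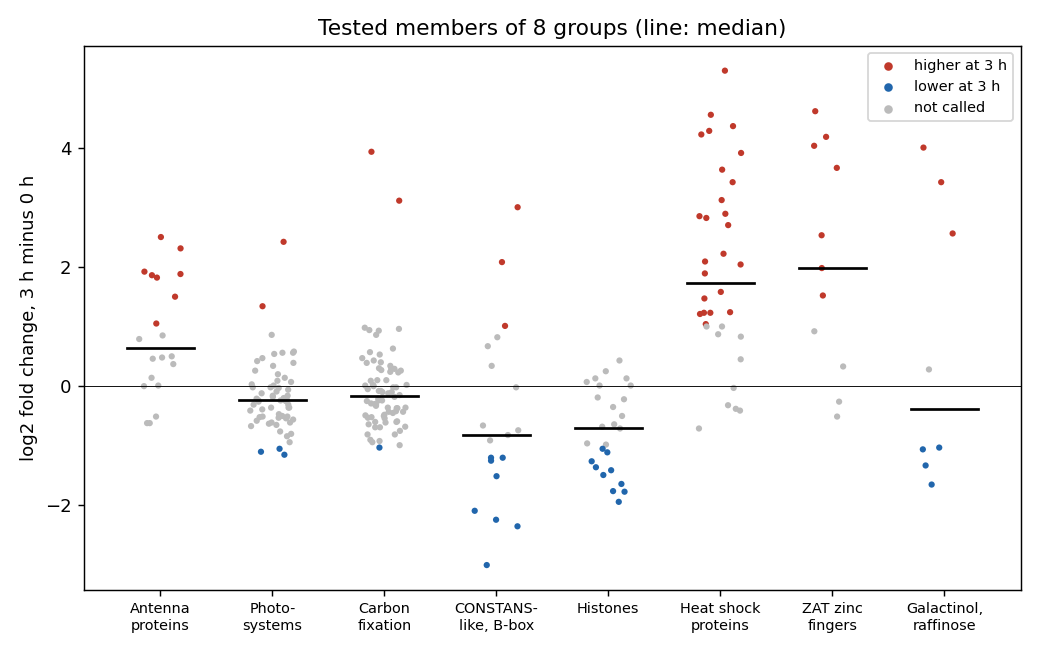
Log2FC, 3 h minus 0 h, of each tested member of 8 gene groups; red points were called higher, blue lower and grey not called, and the line is the median. Heat shock proteins (median 1.73) and ZAT zinc fingers (1.98) lie mostly above 1, histones mostly below 0, and galactinol synthases above the galactosyltransferases of the same group.

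The entry into phenylpropanoid metabolism was higher. Phenylalanine ammonia-lyase (PAL) turns phenylalanine into cinnamic acid, from which lignin, flavonoids and salicylic acid derive. Of 15 PAL genes 10 were higher, with a median log2FC of 3.91 over all 15 and a summed FPKM of 635 at 3 h against 86.5 at 0 h. By their IDs 5 of the higher genes lie on chromosome 4, where they were all the PAL genes, and 5 on chromosome 6, where 9 were tested. The most abundant, CsaV3_6G039700, had 160, 177 and 176 FPKM at 3 h and 12.2, 8.67 and 12.3 FPKM at 0 h (log2FC 3.91 with SE 0.12, limma adjusted p = 3.13e-10), and CsaV3_4G002300 had the highest fold change, with 34.7, 45.8 and 39.5 FPKM at 3 h and 1.58, 0 and 1.24 FPKM at 0 h (log2FC 5.04). In 9 of the 10 higher PAL genes 0 h replicate 2 was the lowest library of its time. PAL genes lie side by side and can share reads, and the treatment of reads with several matches was not stated, so that the values of single copies are uncertain. The lowest of the calls, CsaV3_6G039720 (0.689 ± 0.604 FPKM at 3 h and 0.049 ± 0.0576 FPKM at 0 h), was lost without 0 h replicate 2 (adjusted p = 0.0721), 0 h replicate 3 (0.077) or 3 h replicate 2 (0.132). Of 30 later enzymes of the path 11 were higher and none lower, such as cinnamoyl-CoA reductase 1 (CsaV3_5G027330, 64.2 ± 10.6 FPKM at 3 h and 3.29 ± 2.1 FPKM at 0 h). The sum over these later enzymes was 1271 FPKM at 3 h and 1145 FPKM at 0 h. In flavonoid synthesis 7 of 45 genes were higher and 2 lower.

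Triterpenoid genes formed a further group. Cucurbitadienol synthase (CsaV3_6G007580) makes the skeleton of cucurbitacins, the bitter compounds of the cucumber family. It had 165, 159 and 175 FPKM at 3 h and 7.63, 9.53 and 9.24 FPKM at 0 h (log2FC 4.17 with SE 0.41, limma adjusted p = 9.64e-06). Among the 17 gene IDs centred on it 11 were tested and 5 were higher, and these were neighbours in the order of tested genes. They were an isoflavone hydroxylase-like cytochrome P450 (CsaV3_6G007540, 280 FPKM on average at 3 h and 23 FPKM at 0 h), a CYP89A2-like cytochrome P450 (CsaV3_6G007550, log2FC 3.59), cucurbitadienol synthase, a BAHD acyltransferase (CsaV3_6G007590, 274 ± 17.1 FPKM at 3 h and 14.3 ± 2.37 FPKM at 0 h) and a hypothetical protein (CsaV3_6G007600, 3.87). The tested genes on either side had log2FC values of -0.49 (CsaV3_6G007530) and 0.20 (CsaV3_6G007610) and were not called.

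In the mevalonate pathway of the cytosol, which supplies the precursor of triterpenoids and sterols, a part of the genes changed in the same direction. Of its 16 tested genes from acetyl-CoA acetyltransferase to squalene monooxygenase 8 were higher and none lower. They were acetyl-CoA acetyltransferase (CsaV3_7G002460, log2FC 1.25), HMG-CoA synthase (CsaV3_3G003490, 1.45), the rate-limiting HMG-CoA reductase (CsaV3_7G002170, 2.09), mevalonate kinase (CsaV3_2G005140, 1.26), diphosphomevalonate decarboxylase (CsaV3_5G035560, 1.19), isopentenyl-diphosphate isomerase (CsaV3_1G044500, 1.51), farnesyl pyrophosphate synthase (CsaV3_6G002810, 1.17) and squalene monooxygenase-like (CsaV3_7G007520, 2.04). HMG-CoA reductase had 89.8, 86.7 and 91.4 FPKM at 3 h and 17.9, 23.1 and 20.9 FPKM at 0 h, whereas the other HMG-CoA reductase gene (CsaV3_6G035980) had 39.1, 41.3 and 41.3 FPKM at 3 h and 61.1, 61.5 and 60.5 FPKM at 0 h. The single squalene synthase gene (CsaV3_2G015210) had 110 ± 3.65 FPKM at 3 h, against 64.7 ± 0.414 FPKM at 0 h, and was not called (log2FC 0.76). Further copies for the steps above were not called either. They included squalene monooxygenase (CsaV3_2G025870, 479 ± 17.8 FPKM at 3 h and 351 ± 19.1 FPKM at 0 h, log2FC 0.45). Isopentenyl-diphosphate isomerase (CsaV3_2G009720, -0.25) and acetyl-CoA acetyltransferase (CsaV3_1G015480, -0.02) were others. In the plastid pathway to the same precursor (MEP pathway) no gene of 10 was called by limma, the log2FC values ran between -0.67 and 0.70, and at an unadjusted p under 0.05 without the fold threshold 2 were higher and 4 lower. Both groups and the neighbours of cucurbitadienol synthase were chosen after the values were seen, so that their counts are a description.

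**Figure D5:**
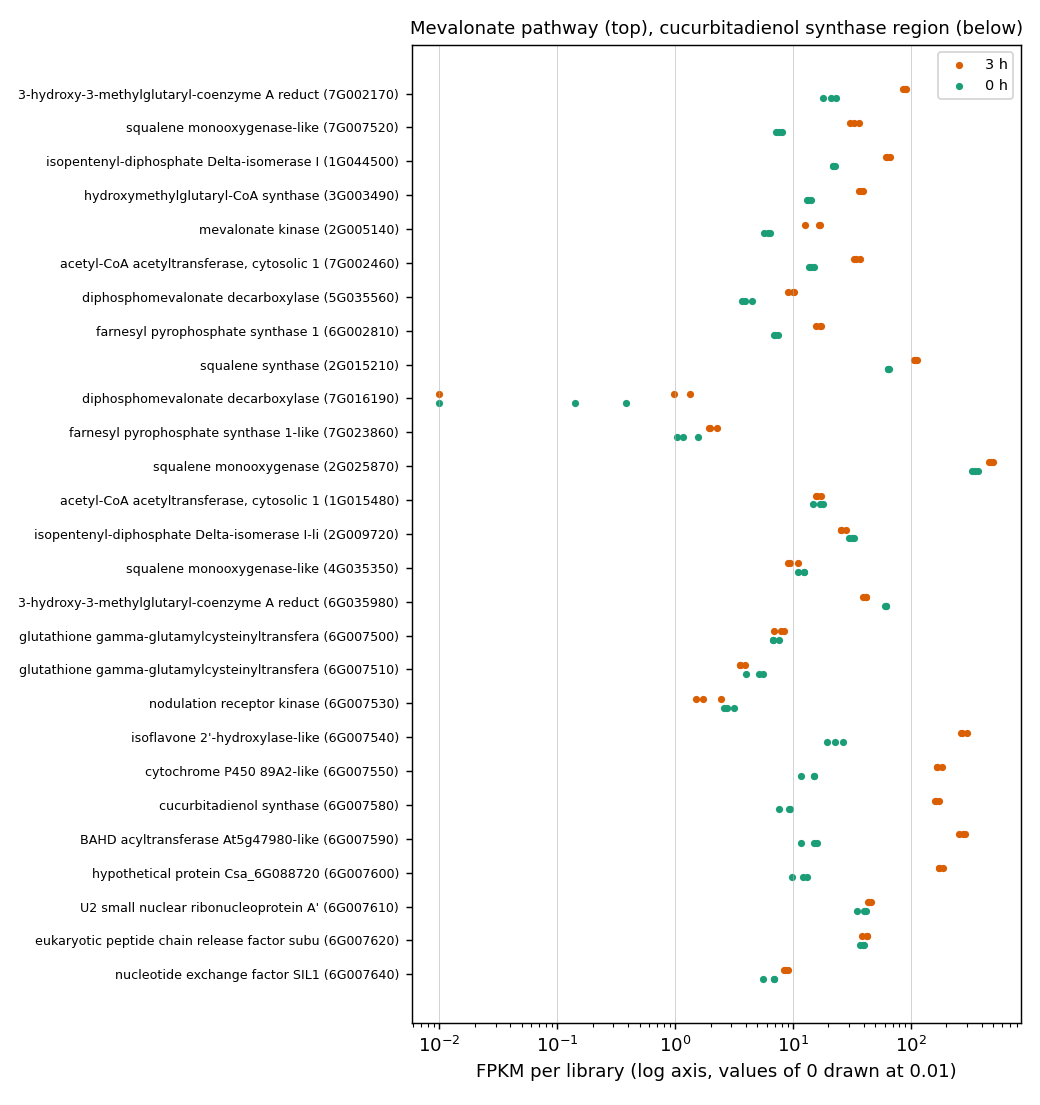
FPKM of each library (log axis, values of 0 drawn at 0.01) for the 16 tested genes of the mevalonate pathway, ordered by fold change, and below them for the 11 tested genes around cucurbitadienol synthase in the order of their IDs; 3 h in orange and 0 h in green. The 5 neighbouring genes from CsaV3_6G007540 to CsaV3_6G007600 stand apart, with 3 h between 159 and 302 FPKM and 0 h under 27 FPKM.

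Among genes of the leaf surface, of 11 3-ketoacyl-CoA synthases (KCS), which elongate fatty acids for waxes, 6 were higher, such as KCS10 (CsaV3_4G036210, 74.1 ± 2.09 FPKM at 3 h and 15.4 ± 0.504 FPKM at 0 h) and KCS6 (CsaV3_5G034300, 104 ± 5.31 and 40.1 ± 0.708 FPKM), along with ECERIFERUM 1 (CsaV3_3G010300, 1.38) and ECERIFERUM 3 (CsaV3_1G029420, 1.32), which form wax alkanes in Arabidopsis. These genes are also markers of the epidermis: of 30 tested epidermis and cuticle markers 15 were higher and 1 lower, and the list summed to between 6770 and 7765 FPKM at 3 h and to between 3053 and 3249 FPKM at 0 h. Most of these sums came from non-specific lipid-transfer protein 1 (CsaV3_3G033150). That gene had 6860, 6603 and 5926 FPKM at 3 h and 2598, 2752 and 2794 FPKM at 0 h, so that the sums do not describe the list as a whole. Xylem markers summed to between 80.6 and 90 FPKM at 3 h and to between 74.1 and 75.7 FPKM at 0 h, and phloem markers to between 340 and 479 FPKM at 3 h and to between 490 and 818 FPKM at 0 h. Most of the phloem sums came from CsaV3_7G006120 (log2FC -0.97) and CsaV3_1G037670 (-0.84, with overlapping libraries), which were not called. The only phloem marker called, PHLOEM PROTEIN 2-LIKE A9 (CsaV3_1G046600, 2.67), was higher. The part of cell composition in the result was not tested. Of 14 desaturases, which lower the melting point of membrane lipids, 5 were higher and 2 lower, with the omega-3 desaturase of the endoplasmic reticulum (CsaV3_1G036250) at 111, 108 and 108 FPKM at 3 h and 35.1, 36.2 and 38.5 FPKM at 0 h. Desaturase genes with more FPKM than this gene were not called, with log2FC values between -0.56 (CsaV3_1G028900) and 0.51 (CsaV3_3G005230). The call of CsaV3_4G001680 (1.24) was lost with a pseudocount of 1 (0.75).

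Of 9 tested LEA and dehydrin genes, whose products protect cells that lose water, 4 were higher and none lower. Dehydrin DHN1-like (CsaV3_4G005460) had 49.2, 63.6 and 61.9 FPKM at 3 h and 3.67, 6.91 and 5.29 FPKM at 0 h (log2FC 3.37, adjusted p = 7.72e-05, limma), and Lea5-A-like (CsaV3_4G000870) had 19.9 ± 6.28 FPKM at 3 h and 1.39 ± 0.907 FPKM at 0 h. Antioxidant enzymes outside the glutathione S-transferases gave 1 higher and 5 lower of 83. The higher count was 3 without 0 h replicate 3, 2 without 0 h replicate 1 or 3 h replicate 1, and 0 with a pseudocount of 1. All 6 called genes were proteins of the thioredoxin system, with thioredoxin H-type (CsaV3_5G008560) at 8.79 ± 1.24 FPKM at 3 h and 28.4 ± 3.47 FPKM at 0 h. Of 32 class III peroxidases 7 were higher, or 3 with a pseudocount of 1, and 3 lower.

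ACC oxidase, the last enzyme of ethylene synthesis, had 276, 348 and 352 FPKM at 3 h and 11.9, 8.28 and 13.5 FPKM at 0 h and was the only gene called of 4 tested in that list. Of 54 genes of linolenic acid and jasmonate metabolism 5 were higher (9.26%) and 2 lower (3.7%), no more than among all tested genes. The higher ones included phospholipase A1 (CsaV3_1G036900, log2FC 4.31), a 13-lipoxygenase (CsaV3_7G034390, 36.8 ± 3.97 FPKM at 3 h and 1.95 ± 0.71 FPKM at 0 h) and allene oxide synthase (CsaV3_2G028330, 24 ± 3.44 and 3.36 ± 0.265 FPKM). A lipase-like gene (CsaV3_6G005740, -1.21) was lower, and lipoxygenase 6 (CsaV3_5G030460, -0.99) and another allene oxide synthase (CsaV3_7G010160, -0.38) were not called. Of 11 JAZ and TIFY genes, of a family that includes repressors of jasmonate responses, 4 were higher, or 2 with a pseudocount of 1. TIFY 11A (CsaV3_3G030830) had 70.7 ± 4.24 FPKM at 3 h and 7.31 ± 0.483 FPKM at 0 h. For abscisic acid, 8 of 27 genes were higher and 2 lower, or 1 lower without 0 h replicate 1 or 3 h replicate 2 and 4 after quantile normalization. The synthesis gene NCED3 (CsaV3_4G007760, 6.76 ± 0.601 FPKM at 3 h and 1.5 ± 0.683 FPKM at 0 h) was higher. So were breakdown genes for abscisic acid hydroxylases (CsaV3_2G026690, 2.60, CsaV3_4G007140, 1.92, and CsaV3_4G034320, 1.87). Other hydroxylase genes differed: CsaV3_2G028920 was lower (-1.06, under 1 FPKM on average at both times). CsaV3_7G025110 (0.37), CsaV3_7G008610 (0.23) and CsaV3_1G034470 (0.14) were not called. The PP2C phosphatases went both ways, with 7 higher and 6 lower of 62. Auxin genes gave 7 higher, or 4 with a pseudocount of 1, and 9 lower of 88, shares near those of all tested genes. Of 37 gibberellin, brassinosteroid and cytokinin genes 9 were higher, such as a cytokinin-activating phosphoribohydrolase (CsaV3_6G013990, 178 ± 6.71 FPKM at 3 h and 26.7 ± 4.86 FPKM at 0 h) and DELLA protein GAI (CsaV3_1G031060, 1.70), a repressor of growth, and 2 were lower.

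Of 31 phosphate homeostasis genes 8 were higher (25.8%) and none lower, or 1 lower without 0 h replicate 2, 3 h replicate 1 or 3 h replicate 3. Besides the SPX1 gene above, another SPX1 gene (CsaV3_2G002890) had 355, 332 and 337 FPKM at 3 h and 39.7, 42.4 and 39.1 FPKM at 0 h, and the phosphate exporter PHO1 homolog CsaV3_5G025280 had 70.8, 91.3 and 93.6 FPKM at 3 h and 6.34, 3.62 and 6.37 FPKM at 0 h. A glycerol-3-phosphate transporter (CsaV3_5G005700) averaged 521 ± 19.1 FPKM at 3 h and 153 ± 0.12 FPKM at 0 h. Among 22 aquaporins, which conduct water, 5 were higher and 4 lower: PIP2-2 (CsaV3_6G039540) of the plasma membrane had 398, 399 and 386 FPKM at 3 h and 101, 112 and 85.9 FPKM at 0 h, and TIP4-1 had 11.9, 12 and 16.1 FPKM at 3 h and 92.7, 72.3 and 87.1 FPKM at 0 h. Of 16 xyloglucan endotransglucosylases, which cut and rejoin wall polymers, 6 were higher and 1 lower (0 lower without 3 h replicate 1), with CsaV3_1G031460 at 73 ± 8.54 FPKM at 3 h and 3.71 ± 1.42 FPKM at 0 h.

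Some of the histone genes were lower at 3 h. Of 36 histone and DNA replication genes 11 were lower (30.6%) and none higher, 10 of them histones, with a median log2FC of -0.69 over the 26 tested histones, 16 of which were not called. Histone H1 (CsaV3_6G046960) had 38.7, 40.6 and 38.3 FPKM at 3 h and 132, 141 and 130 FPKM at 0 h (log2FC -1.76 with SE 0.10, limma adjusted p = 4.01e-08), and a histone H2A gene (CsaV3_2G006590) had 22.3 ± 3.72 FPKM at 3 h and 76.6 ± 7.41 FPKM at 0 h. The call of a histone H3.2 gene (CsaV3_7G031310, -1.05) was lost without 0 h replicate 1 (adjusted p = 0.0581), 0 h replicate 2 (0.0662) or 3 h replicate 3 (0.0941). Of 12 markers of dividing cells 2 were lower and none higher. Cyclin-B1-2 (CsaV3_5G039100), the most abundant marker, had 57.9, 61.7 and 59.3 FPKM at 3 h and 48.5, 53.2 and 43.2 FPKM at 0 h and was not called. The other 11 summed to 23.2, 20.6 and 20.7 FPKM at 3 h and to 43.9, 48.2 and 37 FPKM at 0 h, and their part in the histone result was not tested. With cyclin-B1-2 included, the sums were 80 to 82.3 FPKM at 3 h and 80.3 to 102 FPKM at 0 h.

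By KEGG annotation, 111 pathways had 15 or more tested genes. The shares of higher genes were largest for antenna proteins (8 of 20, 40%), isoflavonoid biosynthesis (6 of 17, 35.3%), sesquiterpenoid and triterpenoid biosynthesis (5 of 17, 29.4%), phenylalanine metabolism (17 of 64, 26.6%) and fatty acid elongation (7 of 27, 25.9%). In the last, 6 of the 7 genes were the KCS genes above. The shares of lower genes were largest for circadian rhythm (17 of 79, 21.5%, with 10 higher), brassinosteroid biosynthesis (3 of 15, 20%), homologous recombination (20 of 120, 16.7%), linoleic acid metabolism (2 of 16, 12.5%) and butanoate metabolism (3 of 25, 12%). Among the 20 lower genes of homologous recombination 13 were copies described as DNA topoisomerase 2-binding protein 1, and 15 lay on sequence not placed on a chromosome, such as CsaV3_UNG142080 (28.4 FPKM on average at 3 h and 66.7 FPKM at 0 h). Copies of this kind can share reads, so that the values of single copies are uncertain.

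Of the tested genes, 91 were listed at 0 FPKM in all 0 h libraries, and 25 of them were higher at 3 h. The highest called among them were CsaV3_6G003350, with 8.1, 8.62 and 8.06 FPKM at 3 h, CsaV3_4G028700, with 9.12, 6.14 and 7.75 FPKM, both without a description, and the uncharacterized CsaV3_3G030160, with 3.65, 2.44 and 3.04 FPKM. The gene CsaV3_4G011980 had 0, 34.3 and 35.7 FPKM at 3 h and was not called (adjusted p = 0.0678, limma), but passed without 3 h replicate 1 (adjusted p = 0.00444). In the other direction 46 genes were listed at 0 in all 3 h libraries, and 10 of them were lower.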

How the data were processed

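RNA-seq of cucumber leaves was used at 3 h and 0 h of cold treatment, with 3 libraries each. The authors trimmed reads with cutadapt 1.9, checked them with FastQC, used HISAT2 with the V3 assembly of Chinese Long cucumber, and deposited FPKM of 24317 genes with descriptions, GO and KEGG terms. The program behind the FPKM values is not stated. The authors' fold changes and p-values in other tables were not used. A deposited 0.0001 stands for 0. Here log2(FPKM + 0.5) of genes with 0.5 FPKM or more in 3 of 12 libraries was fitted with limma 3.58.1 (R 4.3.3; all 12 libraries, group means, eBayes with trend and robust) and 3 h minus 0 h was tested with Benjamini-Hochberg adjustment over 17497 genes. The steps were tested on simulated data. An exact permutation test of 3 against 3 cannot go below 0.1 and was not used. Depth is unknown, so no counting intervals are given, and the study's methods describe the replicates as biological.

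Lists were matched in descriptions or KEGG pathways. The comparison, members and lists were chosen with earlier results of these data known. The lists of PAL genes, later phenylpropanoid enzymes, KCS, small and large heat shock proteins, galactinol enzymes, polyubiquitin, xyloglucan endotransglucosylases, histones, the mevalonate and MEP pathways and the neighbours of cucurbitadienol synthase were added after values were seen. Named genes were the 12 highest and 12 lowest fold changes (mean of 5 FPKM or more in a group, no overlap, with a description), the 5 largest gains and losses in FPKM, up to 3 highest and 3 lowest called members of each list (mean of 2 FPKM or more), and the 5 highest genes listed at 0 at 0 h; others named were chosen after their values were seen. Replicate numbers were checked and did not pair the libraries. Alternatives were pseudocounts of 0.1 and 1, no filter or 1 FPKM, rescaling, quantile normalization, the 6 libraries alone, a replicate block, plain eBayes, other thresholds and leaving out each library. No sequences were analysed here, and the planned promoter motif counts were not made.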

Additional observations from a re-analysis of the deposited data

How the results depend on the processing

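With no fold threshold 5326 genes were higher and 4587 lower, and with a log2 fold change past 2 the numbers were 515 and 75. Under every other alternative the counts stayed within 1.5 times of 1731 and 943, from 1424 and 761 with a pseudocount of 1 to 2089 higher with a pseudocount of 0.1 and 1246 lower after quantile normalization. Leaving out 1 library gave 1670 to 1788 higher and 925 to 986 lower genes. With the replicate number as a block 1727 were higher and 944 lower, 1725 and 941 of them the same genes; same-numbered libraries did not deviate together (correlations of -0.02, -0.02 and -0.03), so that the block adds only a number. After quantile normalization 1468 of the higher and all 943 of the lower genes were kept, and the median of all genes moved to -0.07. Of 364 genes followed one by one, 320 kept their call or lack of one in every alternative run, 44 changed it in at least 1, and 0 changed sign. NAC8-like (CsaV3_6G050450, 2.14) was lost with the 6 libraries alone (adjusted p = 0.0768, limma). Spliceosome genes gave 16 higher with a pseudocount of 0.1 instead of 8. Pectin enzymes gave 4 higher with a pseudocount of 1 and 11 with a pseudocount of 0.1 instead of 7. Their share of higher genes in the main run was near that of all tested genes. Read depth is not known, so that differences between low genes may be limited by counting, and with 3 libraries a group the tests rest on the spread shared over genes.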

Other observations

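A replicate pattern ran through the genes that changed most. Of the 515 genes with a log2 fold change above 2, 0 h replicate 2 was the lowest 0 h library in 57.1% and 3 h replicate 1 the lowest 3 h library in 63.9%, while over all 17497 tested genes these shares were 32.5% and 40.2%. The median level of these 515 genes was 20.3, 25.9 and 22.8 FPKM in the 3 h libraries and 2.53, 1.96 and 2.77 FPKM in the 0 h libraries. Among the 12 highest fold changes, 0 h replicate 2 was the lowest 0 h library in 10. The part of this difference between libraries in the calls was followed only by leaving each library out.

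Glutamate decarboxylases form the stress metabolite GABA, and some of their genes were higher. GAD1 (CsaV3_5G020650) averaged 145 FPKM at 3 h and 47 FPKM at 0 h, and GAD4-like (CsaV3_5G017290) 19.1 and 7.56 FPKM. Their share among all tested glutamate decarboxylases is not given here. In brassinosteroid biosynthesis the CYP90A1 gene (CsaV3_5G010070), for an enzyme of its synthesis, was lower, with 4.2 FPKM at 3 h and 15.7 FPKM at 0 h. These genes were named after their values were seen.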
